A study of Drosophila melanogaster with 6 samples.

Results

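A set of 582 autosomal regions carried peaks of Cmi in wandering larvae and in white prepupae but none in embryos or S2 cells. Cmi, also called Lpt, is a subunit of the Drosophila MLR complex, and its binding was mapped by chromatin immunoprecipitation followed by sequencing (ChIP-seq). The regions were chosen from the peak lists themselves. Peaks of the 4 lists that overlapped or touched were merged, and a merged region was kept when it lay on 2L, 2R, 3L or 3R and held at least 1 larval and at least 1 prepupal peak and no embryonic and no S2 peak. They made up 3.58% (95% interval 3.30 to 3.87) of the 16276 merged regions on these arms, and the whole series held 19648 merged regions. Presence in larva and prepupa and absence from embryo and S2 are therefore the definition of the set and not a result. A region without an embryonic or S2 peak is one in which no peak was listed, which says nothing of binding below the caller's threshold.

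In mammals the counterparts of the MLR complex are built around KMT2C and KMT2D. The fly complex contains the methyltransferase Trr, which places monomethylation on lysine 4 of histone H3, a mark of enhancers, and it takes part in gene control by the steroid hormone ecdysone through the ecdysone receptor. The wandering larva and the white prepupa stand on either side of the ecdysone pulse that starts metamorphosis, when many larval tissues are broken down and the adult structures grow out of the imaginal discs. Whole animals at these stages contain tissues, among them differentiating imaginal discs and large polyploid salivary glands, that embryos and the S2 line do not have in that form.

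The larval and prepupal chromatin came from whole animals and the S2 chromatin from a cell line of embryonic origin. All 6 samples, the S2 cells included, carry the genotype label Y cn bw sp, and each of the 3 sources gave 1 library with the Cmi antiserum and 1 input library. No sample of the series stands behind the embryo list, which rests on data published earlier. It is named E0-8, a range whose unit the labels do not state, and its genotype and animals were not known here. The lists held 6487 peaks for larvae, 9236 for prepupae, 15372 for embryos and 6049 for S2 cells, with the position of each peak but no height. Sequencing depth is unknown. With 1 library per group no difference between stages could be tested against a spread between animals. Intervals are at 95% and cover counting error over regions or peaks only: exact binomial for shares, order-statistic for medians and Poisson for densities. All coordinates are on dm3 and counted from 1, and since gene tables of that build were not at hand the regions are described by position, without gene names or sequence.

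Of the 2992 autosomal regions with both a larval and a prepupal peak, the 582 regions of larva and prepupa only were 19.5% (18.0 to 20.9). The other regions with both peaks divided into 795 that also held an embryonic peak, 264 that also held an S2 peak and 1351 with a peak in all 4 lists. The regions of larva and prepupa only contained 616 larval peaks, which were 11.8% (10.9 to 12.7) of the larval peaks on these arms, and 681 prepupal peaks, which were 9.01% (8.38 to 9.68) of the prepupal ones. Together they spanned 642.1 kb. Larval peaks covered 508.5 kb of this and prepupal peaks 476.9 kb, and 343.3 kb, or 53.5% of the span, was covered at both stages.

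**Figure D1:**
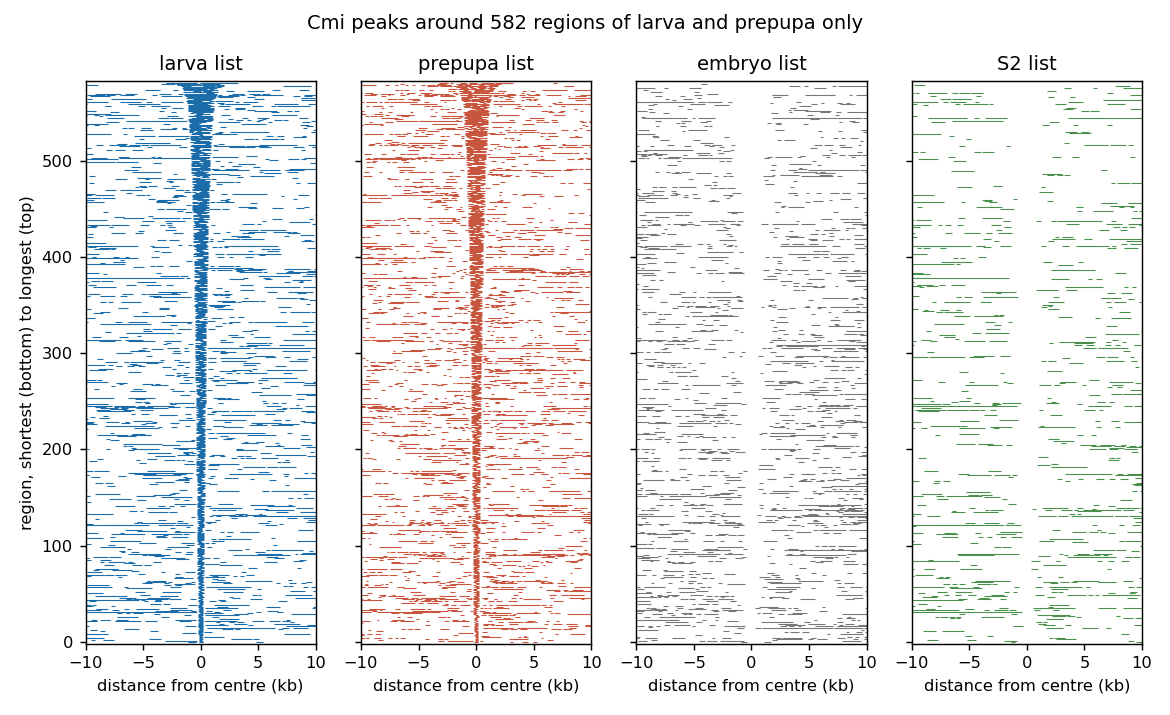
Peaks of the 4 lists within 10 kb of the centre of each of the 582 regions, 1 line per region sorted by length, with distance from the centre in kb on the x axis. Larval and prepupal peaks fill the centre and embryonic and S2 peaks leave it empty, as the rule demands, while 75.6% of the regions had an embryonic and 47.9% an S2 peak somewhere within the window.

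The regions were mostly compact. Their median length was 937 bp (884 to 990), with quartiles of 671.2 and 1346.8 bp and extremes of 324 and 6446 bp. Regions shared with the embryo had a median of 1642 bp, those shared with S2 cells 1855.5 bp and those of all 4 lists 3039 bp. The ranges of the 4 distributions overlap, as the plot of lengths by pattern shows. The upper quartile of the set, 1346.8 bp, lay above the lower quartiles for embryo (1151.5 bp) and S2 (1263.2 bp). It lay below that of all 4 lists (2057.5 bp). The intervals of the medians do not meet, though those for embryo (1566 to 1715) and S2 (1722 to 1994) nearly do. A longer region has more room to meet a peak of another list, so length and membership are tied by the rule. Among the regions with a larval and a prepupal peak, 52.4% (48.8 to 56.0) of the shortest of 4 equal classes, from 324 to 1212 bp, belonged to larva and prepupa only. The share was 18.9% (16.1 to 21.8) in the class from 1214 to 1988 bp, 5.75% (4.19 to 7.67) from 1989 to 3270 bp and 0.802% (0.295 to 1.74) from 3273 bp upward.

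**Figure D2:**
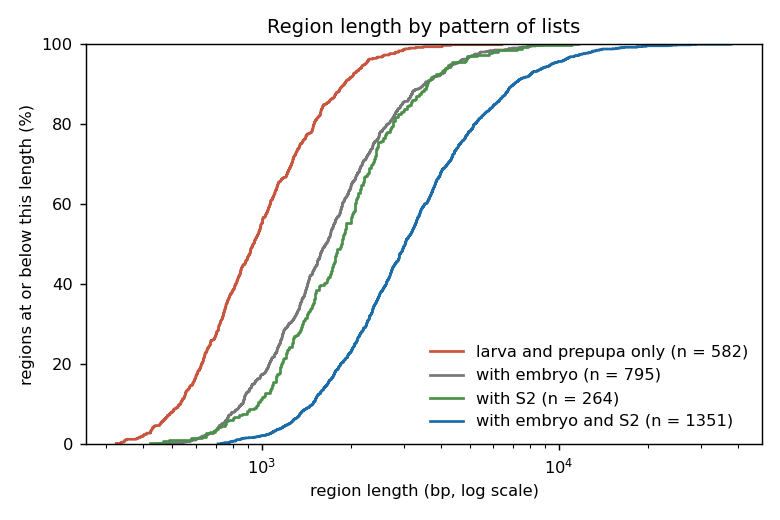
Cumulative share of regions (percent) against region length (bp, log scale) for the 4 patterns that include larva and prepupa. The curve of larva and prepupa only lies to the left of the others, with a median of 937 bp against 1642, 1855.5 and 3039 bp.

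The individual peaks stood differently in their lists. Larval peaks inside the regions had a median width of 662 bp (625 to 714), below the 783 bp of all larval peaks on the 4 arms, and 39.1% (35.2 to 43.1) of them were wider than that list median. Prepupal peaks inside the regions had a median of 549 bp (512 to 590), above the 493 bp of all prepupal peaks, and 56.4% (52.6 to 60.2) exceeded that median. In 183 regions (31.4%) both the widest larval and the widest prepupal peak were wider than their list's median, and in 168 (28.9%) neither was. Broad and narrow peaks were thus both well represented in the set. A wider peak has more room to meet one of another list, so the rule bears on these widths too. The same shares for other patterns are not given here.

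Most regions showed a simple correspondence of 1 larval to 1 prepupal peak. This held in 481 of 582 regions, or 82.6% (79.3 to 85.6), where the background over all regions with both peaks was 57.1%. The share was 65.2% (61.7 to 68.5) in regions shared with the embryo, 57.2% (51.0 to 63.2) in those shared with S2 cells and 41.3% (38.7 to 44.0) in those of all 4 lists. The order of these shares is the reverse of the order of median lengths, and the part of length in them was not tested. A region held 2 or more prepupal peaks in 81 cases (13.9%, background 37.5%) and 2 or more larval peaks in 31 cases (5.33%, background 19.5%). Where the numbers were unequal, 1 larval peak usually faced several prepupal peaks: 70 regions (12.0%, 9.50 to 15.0) had 1 larval and 2 or more prepupal peaks, and 20 regions (3.44%, 2.11 to 5.26) had the reverse. This order was not particular to the set. The shares were 21.0 and 5.53% in regions shared with the embryo, 26.5 and 4.55% in those shared with S2 cells and 29.1 and 6.29% in those of all 4 lists.

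Where a region of the set holds 1 peak of each stage, the rule makes these peaks overlap or touch. That limits how far apart their midpoints can lie. In the 481 regions with 1 peak each, the midpoints were a median of 124 bp (110.5 to 144.5) apart, with quartiles of 49.5 and 230 bp and a maximum of 831 bp. The distance was at most 100 bp in 203 regions (42.2%) and at most 250 bp in 376 (78.2%). At least 50% of the shorter peak was covered in 444 regions (92.3%, 89.6 to 94.5). The median cover of the shorter peak was 100% in the set and likewise in each other pattern with both stages. The prepupal peak lay wholly inside the larval peak in 149 regions (31.0%) and the larval inside the prepupal in 108 (22.5%), and 224 pairs (46.6%) were staggered. Over all lengths, midpoint distances were close to those elsewhere. They were 130 bp in regions shared with the embryo and 131 bp in those shared with S2 cells. In those of all 4 lists they were 133.8 bp, and each value lies inside the interval of the larva and prepupa regions. Among regions of 500 to 1500 bp with 1 peak each, the set had the largest median, 127.8 bp (111.5 to 149.5). It was 121 bp (90.0 to 175) with S2 cells and 113 bp (103 to 130.5) with the embryo. In regions of all 4 lists it was 103.2 bp (85.0 to 129), below the set's interval, though the intervals overlap.

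Across the set neither stage's coverage was far the greater, but within a region the larval and prepupal lengths often differed. The median ratio of larval to prepupal covered length was 1.12 (1.04 to 1.18), with quartiles of 0.748 and 1.65 and extremes of 0.179 and 8.06. With all lists shortened to equal numbers of their widest peaks it was 1.01 (0.986 to 1.09), and with peaks joined across gaps of up to 500 bp it was 1.06 (0.986 to 1.14). Both of these intervals include a ratio of 1. The interval stayed above 1 with only peaks wider than the list median (1.18, 1.10 to 1.27). So it did when peaks of different lists, the excluded ones included, were joined only at 50% cover of the shorter (1.14, 1.08 to 1.21). It also did so without regions that had an excluded peak within 1 kb (1.10, 1.01 to 1.16) and from the widest peak of each list (1.19, 1.10 to 1.28). Larval coverage was the greater in 331 of 582 regions (56.9%, 52.7 to 60.9), and it was more than 1.5 times the prepupal coverage in 177 (30.4%, background 33.4%). The opposite, prepupal coverage more than 1.5 times the larval, was seen in 113 regions (19.4%, 16.3 to 22.9) against a background of 11.6%, and in 15.7% (13.3 to 18.4) of regions shared with the embryo, 11.4% (7.80 to 15.8) of those shared with S2 cells and 5.77% (4.59 to 7.15) of those of all 4 lists. Among regions of like length and with 1 peak each, the ratio was again lowest in the set and highest in the regions of all 4 lists. Between 500 and 1500 bp the median ratio was 1.11 (0.999 to 1.21) in 374 regions of larva and prepupa only, 1.20 (1.0 to 1.41) in 79 shared with S2 cells, 1.30 (1.20 to 1.39) in 306 shared with the embryo and 1.49 (1.40 to 1.64) in 124 of all 4 lists. The first interval does not meet the last, overlaps the second and, narrowly, the third. Larval peaks in the set start at 320 bp and prepupal ones at 220 bp, the floors of their lists, so the smallest values of the ratio's parts are set by the lists.

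**Figure D3:**
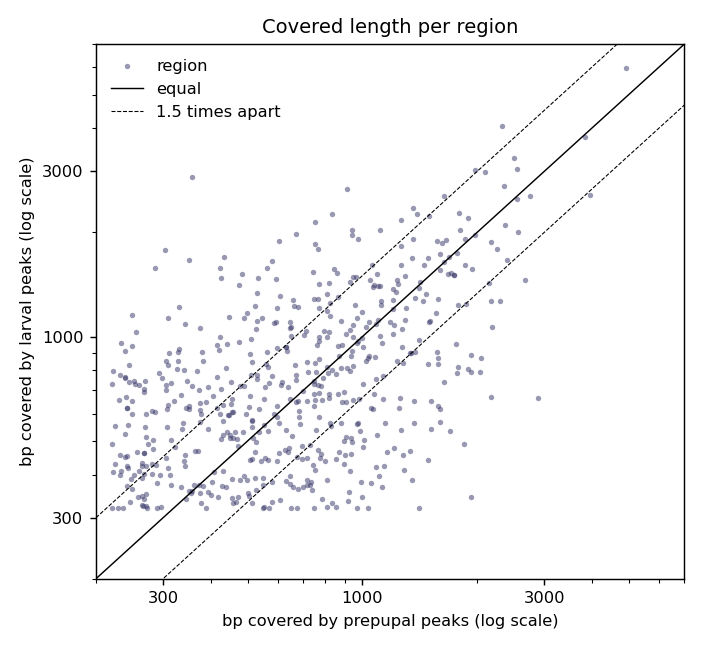
Base pairs covered by larval peaks (y axis) against those covered by prepupal peaks (x axis), both on log scales, 1 point per region, with lines for equal coverage and for a difference of 1.5 times. Points lie on both sides of the line of equality, 331 of 582 above it, and the lower edge at 320 bp on the y axis is the narrowest larval peak.

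Broad larval and broad prepupal coverage went together only loosely. Across the 582 regions the Spearman correlation of larval and prepupal covered length was 0.47, and across the 2410 other regions with both peaks it was 0.74. Regions are not independent replicates, the range of lengths is narrower in the set, and both values are descriptions.

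The longest region of the set was on 3L from 20723041 to 20729486, 6446 bp long. It held 2 larval peaks of 2711 and 3237 bp and 6 prepupal peaks of 276 to 1575 bp, and larval peaks covered 5948 bp, prepupal peaks 4910 bp and both together 4412 bp of it. It is also first by the length covered at both stages and by the number of prepupal peaks. The nearest embryonic peak was 17397 bp away and the nearest S2 peak 17953 bp away, so this broad domain stood well clear of both excluded lists. The nearest other region of the set was 100683 bp away.

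Second in length was the region on 3L from 70380 to 74712, near the tip of the arm, where larval peaks covered 3783 bp and prepupal peaks 3840 bp, with 3290 bp in common. Its 2 larval and 2 prepupal peaks were offset, so that a prepupal peak of 2805 bp bridged the gap between the larval peaks. A further region of the set lay only 72 bp away, and an embryonic peak 1738 bp away.

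Several of the long regions were single larval peaks that corresponded to a row of prepupal peaks. On 2L from 3353586 to 3357646 a larval peak of 4061 bp contained 4 prepupal peaks of 468, 608, 496 and 751 bp, which covered 2323 bp. On 2L from 7700961 to 7704457 a larval peak of 3285 bp overlapped 4 prepupal peaks with 2501 bp in all, and the nearest embryonic peak was 59549 bp and the nearest S2 peak 21845 bp away. The region on 3R from 18871962 to 18875260 likewise had 1 larval peak of 3046 bp and 4 prepupal peaks of 446 to 719 bp. On 2R from 19703292 to 19706275 a larval peak of 2984 bp contained 3 prepupal peaks, and on 3R from 5779141 to 5782175 a larval peak of 3035 bp contained 2. In such rows, binding in pieces cannot be told apart from signal that the caller joined in the larval library and split in the prepupal one.

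The reverse arrangement was found in a few places. On 3R from 19737905 to 19741950 a single prepupal peak of 3955 bp lay over 4 larval peaks of 367 to 1075 bp, which covered 2568 bp. On 3L from 12379677 to 12381358 a prepupal peak of 1673 bp lay over 3 larval peaks of 353, 422 and 740 bp. These 2 regions were the only members of the set with more than 2 larval peaks. The other long regions were mixed: 3R from 21379840 to 21382976 held 2 peaks of each stage, with 2548 bp larval and 2751 bp prepupal coverage, and 3L from 10702620 to 10705610 held 2 larval and 3 prepupal peaks in an alternating chain, with 1454 and 2671 bp.

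Broad binding as 1 peak at each stage was clearest on 3L from 3512376 to 3515060. There a larval peak of 2498 bp and a prepupal peak of 2551 bp shared 2364 bp. This region lay in a gap between excluded peaks, with an embryonic peak 501 bp and an S2 peak 479 bp away. On 3L from 12791214 to 12794025 a larval peak of 2727 bp shared 2272 bp with 3 prepupal peaks, with an embryonic peak 343 bp away and the nearest S2 peak 112790 bp away. Of the 10 regions with the longest stretch covered at both stages, 8 are also among the 10 longest.

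The regions lay in surroundings that were often occupied in embryos or S2 cells. The nearest embryonic peak was a median of 3168 bp away (2666 to 4001) and the nearest S2 peak 10186.5 bp (8763 to 12243). The embryo list is the longer, with 15372 peaks against 6049, and the nearer of the excluded peaks was embryonic in 424 regions (72.9%). An embryonic or S2 peak was within 1 kb of 166 regions (28.5%, 24.9 to 32.4), within 5 kb of 397 (68.2%, 64.3 to 72.0) and within 20 kb of 554 (95.2%, 93.1 to 96.8). The background for 5 kb, over all larval or prepupal regions without an embryonic or S2 peak, was 71.0%, and the share was 75.6% (71.3 to 79.5) for regions of larva only and 70.8% (68.6 to 73.0) for those of prepupa only. In this respect the set stood near its background.

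**Figure D4:**
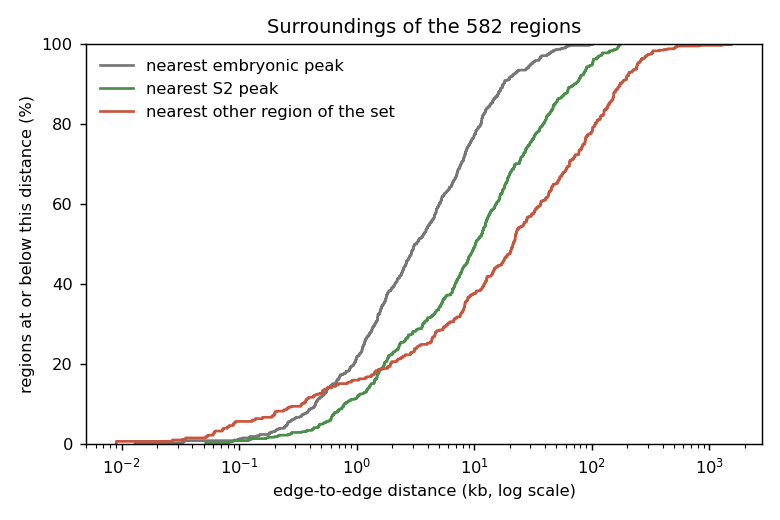
Cumulative share of the 582 regions (percent) against the edge-to-edge distance in kb (log scale) to the nearest embryonic peak, the nearest S2 peak and the nearest other region of the set. The medians are 3168, 10186.5 and 21401.5 bp, and the curve for other regions of the set starts highest, below 1 kb, before the curves cross.

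At the edge of the rule, membership turned on a few bases. The members nearest to an excluded peak were on 2R from 2768144 to 2768989, 13 bp from an embryonic peak, on 2L from 11069319 to 11070046, 25 bp from one, and on 2L from 5060380 to 5061787, 33 bp from one. Just outside the set were a region on 2L from 19455747 to 19456737, whose embryonic peak shared 3 bp with the others, a region on 2R from 20869434 to 20871397, with 19 bp shared with an embryonic peak, and a region on 3L from 5546715 to 5548137, with 37 bp shared with an S2 peak. The first of the members had near-equal coverage, 799 bp in larvae and 835 bp in prepupae, and the second had 551 and 224 bp that met over 47 bp.

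Only 3 regions had no excluded peak within 50 kb, and none of them was longer than the set's median of 937 bp. They lay on 3L from 23753186 to 23754107, with 61418 bp to the nearest excluded peak, on 3R from 19297994 to 19298624, with 60288 bp, and on 3R from 1932595 to 1933321, with 50745 bp. In each a larval peak of 357, 384 or 373 bp lay inside a prepupal peak of 922, 631 or 727 bp. The larval peaks were thus near the floor of 320 bp.

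Some regions of the set had another one close by. Another region of the set was within 10 kb of 219 regions (37.6%, 33.7 to 41.7), a share that was 20.9% (16.2 to 26.2) with only the peaks above the median width of each list. The median distance to the nearest was 21401.5 bp (17823 to 24414), with quartiles of 3965 and 85865.5 bp. Neither this distance nor the share within 10 kb is given here for other patterns, so neither is shown to be particular to the set. In the row of all merged regions along an arm, 13.4% (11.5 to 15.5) of the 1164 immediate neighbours were again of larva and prepupa only, a pattern that made up 3.58% of all regions. Among the neighbours of regions shared with the embryo this pattern was 4.47% (3.51 to 5.6), among those of regions shared with S2 cells 6.82% (4.82 to 9.31) and among those of all 4 lists 3.40% (2.75 to 4.16). Regions of larva only (11.0%, 8.97 to 13.2) and of prepupa only (8.17%, 7.26 to 9.16) also had it often as a neighbour. Adjacency to the same pattern was not confined to the set. It was 7.58% for regions shared with S2 cells, which were 264 of the 16276 regions. For those shared with the embryo, 795 of the 16276, it was 9.69%. For those of larva only, 2.69% of all regions, it was 11.0%. It was 11.3% for regions of all 4 lists and 32.3% for those of prepupa only, which made up 8.30 and 10.2% of all regions. These classes differ in size, from 264 regions shared with S2 cells to 1665 of prepupa only, which sets part of such shares. As a multiple of the class's share of all regions, adjacency was higher for regions shared with S2 cells and of larva only than for the set.

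Among the 1008 neighbours of another pattern, 63.9% (60.8 to 66.9) held a larval or prepupal peak, where 39.3% of all regions of another pattern did. With neighbours of larva and prepupa only again left out, the share was 66.0% (64.3 to 67.7) beside regions of prepupa only, 59.5% (55.9 to 63.0) beside those of larva only, 59.1% (54.7 to 63.5) beside those shared with S2 cells, 47.2% (44.7 to 49.8) beside those shared with the embryo and 41.3% (39.4 to 43.3) beside those of all 4 lists. Neighbours of their own pattern thus count for these classes but not for the set. Over all neighbours, each class's own pattern included, the share was 68.7% (66.0 to 71.4) in the set. It was 68.8% (67.2 to 70.4) beside regions of prepupa only, 63.9% (60.6 to 67.1) beside those of larva only and 61.9% (57.6 to 66.1) beside those shared with S2 cells. By that count the set lay within the range of the other patterns that lack an embryonic peak. Of all 1164 neighbours, 23.4% were of prepupa only, which made up 10.2% of all regions. Embryo-only regions were 24.7% of the neighbours and 45.7% of all regions. Regions of all 4 lists were 7.90% of the neighbours and 8.30% of all regions, and the nearest of them was a median of 20870 bp away. Both neighbours held a larval or prepupal peak in 288 regions (49.5%), and neither did in 70 (12.0%). Shares for both neighbours together are not given here for other patterns.

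Part of this adjacency lay within short distances. The 78 pairs of directly adjacent regions had a median gap of 456.5 bp, and 41 of the pairs were at most 500 bp apart. Whether such pairs are separate sites or parts of 1 bound domain cannot be told apart in peak positions. Across the 580 regions flanked on both sides, the stretch between the nearest excluded peaks had a median length of 16.1 kb. Its quartiles were 7.18 and 35.8 kb. Of these regions 194 (33.4%) shared their stretch with at least 1 other region of the set. The same share for other patterns is not given here.

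Chaining regions at gaps of at most 10 kb gave 86 clusters of 2 or more, of which 59 were pairs, and left 363 regions alone. Clusters of other patterns are not given here, so these counts have no background. The largest cluster was on 3R from 9873642 to 9896678 and held 9 regions in 23037 bp, with 9 larval and 11 prepupal peaks. Its regions measured 428 to 2885 bp, with a median of 1101 bp. Larval coverage was the greater in 8 of the 9 regions, most of all from 9889238 to 9892122, where it was 2885 bp against 358 bp. The first region, from 9873642 to 9874847, was the exception, with 501 bp in larvae and 896 bp in prepupae. The span also held 2 regions of prepupa only, 1 of larva only and 2 with embryonic peaks, and no S2 peak.

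There were 4 clusters of 5 regions. On 3L from 6241846 to 6249958 the 5 regions had 5 larval and 5 prepupal peaks within 8113 bp, with no other merged region between them, and the longest had 1748 bp of larval and 1773 bp of prepupal coverage. On 3L from 16195610 to 16209604 the 5 regions were joined by 2 regions of prepupa only, and prepupal coverage was the greater in 3 of them. On 2R from 12984024 to 12998989 the 5 regions measured 534 to 2690 bp with no other region between them, and larval coverage was the greater in all 5, with 2666 bp against 909 bp in the longest. On 3R from 5766108 to 5791228 the cluster split: the first 3 regions had more larval coverage (1158 against 249 bp, 1306 against 861 bp and 3035 against 1974 bp), and the last 2 had more prepupal coverage (2170 against 671 bp and 2038 against 791 bp). This span also held 3 regions of prepupa only, 1 of larva only and 2 with embryonic peaks. Excluded peaks were absent from 3 of the 5 largest clusters, and S2 peaks from all 5. The regions chained in a cluster lack such peaks by the rule, and many of the smaller clusters also held none.

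The regions were spread over the 4 arms with the most on 3L. There were 189 on 3L, 144 on 3R, 132 on 2L and 117 on 2R. Their share on 3L was 32.5% (28.7 to 36.4), where 3L held 25% of all merged regions, 30.3% (27.1 to 33.6) of those shared with the embryo and 23.5% (21.3 to 25.9) of those of all 4 lists. The share on 2R was 20.1% (16.9 to 23.6), against 23.7% of all regions and 28.7% (26.3 to 31.2) of those of all 4 lists. Per Mb of arm span there were 7.70 (exact Poisson interval 6.65 to 8.88) on 3L, 5.74 (4.80 to 6.80) on 2L, 5.53 (4.58 to 6.63) on 2R and 5.16 (4.35 to 6.08) on 3R. Prepupal peaks in general were also densest on 3L, at 86.6 per Mb against 83.4 on 2R, 75.8 on 3R and 67.5 on 2L, while larval peaks were densest on 2R, at 59.4 per Mb against 57.2 on 3L.

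**Figure D5:**
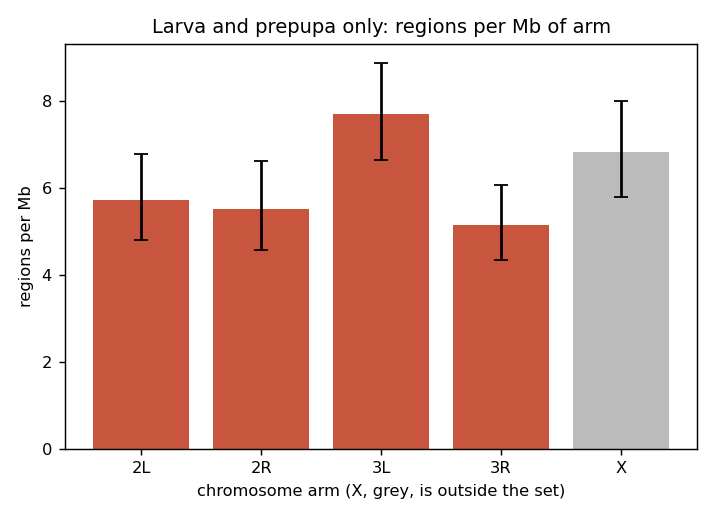
Regions of larva and prepupa only per Mb of arm span, with exact Poisson 95% intervals as error bars, for the 4 arms of the set and, in grey, the regions of the same pattern on X. The bar for 3L is the tallest at 7.70 per Mb, and X stands at 6.83 per Mb.

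Relative to the regions with both peaks on the same arm, the set made up 23.2% (20.4 to 26.3) on 3L, 21.3% (18.2 to 24.8) on 2L, 17.2% (14.7 to 20) on 3R and 16.2% (13.6 to 19.0) on 2R. On X, which the rule leaves out, 153 of 660 such regions (23.2%, 20 to 26.6) had the same pattern, or 6.83 (5.79 to 8.0) per Mb. The X regions resembled the set, with a median length of 1115 bp (934 to 1180), a ratio of larval to prepupal coverage of 1.26 (1.06 to 1.46) and 1 peak of each stage in 82.4% (75.4 to 88.0). Chromosome 4 had 3 such regions among 29 with both peaks.

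Length and the ratio of coverage differed little between the arms. Median lengths were 1020 bp (918 to 1086) on 3R, 988 bp (878 to 1109) on 2R, 895 bp (817 to 992) on 3L and 874.5 bp (782 to 985) on 2L, with overlapping intervals. The ratio of larval to prepupal coverage was 1.26 (1.10 to 1.40) on 2L, 1.14 (1.0 to 1.29) on 2R, 1.11 (0.894 to 1.21) on 3R and 1.05 (0.985 to 1.18) on 3L, again with overlapping intervals. The distance to the nearest other region was shortest on 3L, with a median of 8806 bp (7608 to 19170), and longest on 3R, with 34301.5 bp (22153 to 53306). Along the arms, divided into 5 equal parts, the part nearest to the centromere held 14.9% (12.1 to 18.1) of the set, against 18.8% of all merged regions and 17.4% of those with both peaks. Each of the remaining parts held between 19.9% and 22.7%.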

How the data were processed

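ChIP-seq with a Cmi antiserum was made from S2 cells, wandering larvae and white prepupae, 1 ChIP and 1 input library each. The authors deposited 4 peak lists of 3 columns (chromosome, start and end), among them an embryo list of data published earlier, with no score, count or p-value. The submitters' processing notes name BWA, MACS2 and the build dm3. Not given in the sources used here were versions, peak threshold, use of the inputs and pooling. Input libraries were not analysed here.

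Overlapping or touching peaks of any list were merged, and measures were computed per region with Python 3.11.15, numpy 2.4.6, pandas 2.3.3 and scipy 1.17.1, with figures in matplotlib 3.10.9. The merging was checked on planted peaks. Shares have exact Clopper-Pearson intervals, medians exact order-statistic intervals and densities exact Poisson intervals, all at 95%. Arm span is the highest peak end in any list. No test was run, because each group is 1 library. Gene names, gene lists and sequence motifs were not analysed here, as no dm3 annotation or genome was used. Regions named are the 10 longest, the 10 with the longest stretch covered at both stages, those with most peaks of either stage (5 prepupal, 3 larval), the 5 largest clusters, and those nearest to, farthest from and just outside the rule's edge (3 each). The set, this naming and all measures were chosen with earlier results of these data known. Distances to other patterns' regions, neighbour patterns, stretches between excluded peaks and positions along the arms were added after the peak lists had been seen.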

Additional observations from a re-analysis of the deposited data

Results flagged for a closer look

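Outside the arms, 11 regions had a larval and a prepupal peak and no embryonic or S2 peak on unplaced or heterochromatic sequence, a part of the lists that the comparisons above do not use. They comprised 7 on Uextra, 2 on U, 1 on 3LHet and 1 on 3RHet. They are listed because they lie outside the regions compared, and no significance is attached to their number.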

How the results depend on the processing

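The number of regions stayed within 1.5 times of 582 when peaks of different lists were joined only where at least 50% of the shorter was covered (622). It also did so with peaks joined up to 500 bp (423), with equal numbers of widest peaks (574) and without regions that had an excluded peak within 1 kb (416). It was 273 with only the peaks above the median width of each list, which leaves fewer peaks by construction, and 980 with every peak set to 500 bp. Of these 980 regions 565 overlapped a region of the set, and of the 273 regions 181 did. Equal numbers of widest peaks gave a similar count but partly other regions. Of the 574 regions 416 (72.5%) overlapped a region of the set, and 71.5% of the set was found again. With 50% coverage 547 of the 622 overlapped one, and with joining 404 of the 423. The 50% rule held for embryonic and S2 peaks too, so a lesser overlap with one did not by itself exclude a region. The share among regions with both peaks was 16.2% with joining to 500 bp, 15.8% with wide peaks, 23.1% with equal numbers, 30.4% with 500 bp peaks and 13.9% without near excluded peaks. Regions with 1 peak of each stage were 89.5% with 50% coverage, 64.1% with joining, 89.7% with wide peaks and 91.4% with 500 bp peaks. The median length was 1123, 1438, 1091.5 and 659 bp with joining, wide peaks, equal numbers and 500 bp peaks. The ratio of larval to prepupal coverage was 1.01 (0.986 to 1.09) with equal numbers, 1.06 (0.986 to 1.14) with joining, 1.0 with 500 bp peaks, where the construction fixes it, and 1.19 from the widest peaks. It was 1.14 with 50% coverage, 1.18 with wide peaks and 1.10 without near excluded peaks. The midpoint distance was 147.5 bp with wide peaks. Regions within 10 kb of another were 27.9% with joining, 20.9% with wide peaks and 45.8% with 500 bp peaks, 28.4% at 5 kb and 47.6% at 20 kb. Regions within 5 kb of an excluded peak were 61.5, 54.2, 54.9, 79.3 and 55.5% with joining, wide peaks, equal numbers, 500 bp peaks and without near excluded peaks, 47.8% at 2 kb and 84.0% at 10 kb. Where the construction does not give the cause, the cause was not tested. The share on 3L stayed between 30.4% and 32.5% in the 6 alternatives run for it. No paired analysis was possible because each group has 1 library. Unknown depth limits every statement that a peak is missing from a list.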
